A study of Mus musculus with 6 samples.

Results

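Primary mouse hepatic stellate cells that had received both TGF-beta and the compound K-80003 were compared with untreated cells from the same series. The comparison used 4 of the 6 libraries of the series: TGF-beta-K-80003 replicates 1 and 2 against Control replicates 1 and 2, over 15987 genes tested of 56691 in the deposited table. The remaining 2 libraries, cells given TGF-beta without K-80003, entered the same fit and served to ask which genes moved by the cytokine lay back at, beyond or short of the Control level once both agents were present. All cells were labelled as wild type and as coming from liver. Doses, treatment times, days in culture, sex and age of the mice, and whether the 2 libraries of a group came from separate cultures or animals are not given in the sources used here. P-values therefore measure only the spread between these libraries, which may be technical. No group received K-80003 alone, so its effect without TGF-beta cannot be read here. A difference between TGF-beta-K-80003 and Control does not by itself separate the agents. The TGF-beta libraries show only what differed when K-80003 was added to the cytokine.

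Hepatic stellate cells are the pericytes of the liver sinusoid. In the resting state they store vitamin A as retinyl esters in lipid droplets; when activated they lose these stores, become contractile and secrete the fibrillar collagens of liver scar, and TGF-beta is the best known cytokine that drives that change. RXRα, the receptor named in the study's title and the target of K-80003, is a nuclear receptor that binds DNA with partners such as the retinoic acid, PPAR, LXR and FXR receptors.

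RNA was measured by sequencing of polyadenylated transcripts, and levels are given below as CPM (TMM-scaled counts relative to library size), in the order replicate 1, replicate 2. Summed counts were 19004144 and 16459654 in the TGF-beta-K-80003 libraries, 18339385 and 17420317 in the TGF-beta libraries, and 15646093 and 16597238 in the Control libraries. The floor of 3 counts corresponded to between 0.158 and 0.192 CPM. On the first principal component, which held 54.1% of the variance over all 6 libraries, the TGF-beta-K-80003 libraries lay at 65.8 and 63.3, the TGF-beta libraries at -19.0 and -13.8 and the Control libraries at -44.8 and -51.5. Counting noise did not account for the spread within groups (chi-square per degree of freedom 13.0 within TGF-beta-K-80003, 29.2 within TGF-beta and 31.7 within Control), and every library entered as its own replicate. Between TGF-beta-K-80003 and Control libraries the same measure ran from 62.9 to 86.3. Replicate 1 held more of its counts in long genes than replicate 2 in both groups compared, with a mean exonic length per count of 6433 and 5848 bases in TGF-beta-K-80003 and 6518 and 5629 bases in Control. In TGF-beta the order was reversed, at 5701 and 6548 bases.

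The labelled cell type was checked against marker genes. Stellate cell markers were abundant, with a summed level of 8340 and 7806 CPM in TGF-beta-K-80003 and 14153 and 12984 CPM in Control. Among them the matrix glycoprotein gene Reln stood at 2753 and 1690.4 CPM in TGF-beta-K-80003 and 3935 and 1872 CPM in Control, and the intermediate filament gene Vim at 2481 and 2942 CPM and 2099 and 2916 CPM in those groups. Lymphocyte and neutrophil markers summed to at most 0.879 CPM in any library, and none of the 7 passed the filter on low counts; Ly6g, which marks neutrophils, was at 0 in all libraries. Hepatocyte markers summed to 17.4 and 70.6 CPM in TGF-beta-K-80003 and 47.5 and 64.6 CPM in Control, with albumin (Alb) at 2.93 and 24.4 CPM and 5.58 and 7.47 CPM. Of 7 hepatocyte markers tested 2, Trf and Hnf4a, fell and 0 rose, but the median log2 fold change of TGF-beta-K-80003 over Control was 1.21. The call of Trf was lost without any single library other than TGF-beta-K-80003 replicate 2. The other 5 were not called. Each was above both Control libraries in TGF-beta-K-80003 replicate 2 and not in replicate 1. Cyp2e1, which was not tested, had 0.105 and 5.04 CPM against 0 and 0.289 CPM. Macrophage markers summed to 25.0 and 30.4 CPM in TGF-beta-K-80003 and 47.9 and 47.0 CPM in Control. Of 7 tested 2 fell and 0 rose, with 0 called if TGF-beta-K-80003 replicate 1 or Control replicate 2 was left out and 1 if the other library of either group was. In such bulk samples, fewer cells of a type and less RNA of its genes per cell cannot be told apart.

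Both agents together left the transcriptome far from that of untreated cells, and more genes were lower than higher. With edgeR's quasi-likelihood test and an adjusted p under 0.05 (the rule for a call throughout), 2758 of 15987 genes were called, which is 17.3% of the genes tested. Of these, 886 were higher (5.54%) and 1872 were lower (11.7%). These shares are the background for each list count below. By at least 2-fold, 437 of the called genes were higher and 1504 lower, and by at least 8-fold, 49 were higher and 295 lower. The median log2 fold change of all genes tested was 0.02. With the replicate number as a block in a fit of these 4 libraries, 6517 genes were called, 2935 higher and 3582 lower. List members called were 489 with the block and 326 without it. Of the genes called, 45.0% were higher with the block and 32.1% without it. Counts and p-values below are without this block unless stated. Some genes not called below were called with it, among them Ccn2, Hmgcs1 and Actb. All 24 mitosis genes, 16 of 24 interferon-stimulated genes, 13 of 24 contractile genes and 9 of 17 retinoid genes tested fell, and 22 of 24 targets of the stress factor ATF4 and 12 of 16 serine and one-carbon enzymes rose. Calls depended on the number of libraries: leaving out 1 library at a time gave between 996 and 2397 calls, with 996 called without TGF-beta-K-80003 replicate 2, 1011 without replicate 1 of that group and 1733 without Control replicate 2.

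**Figure D1:**
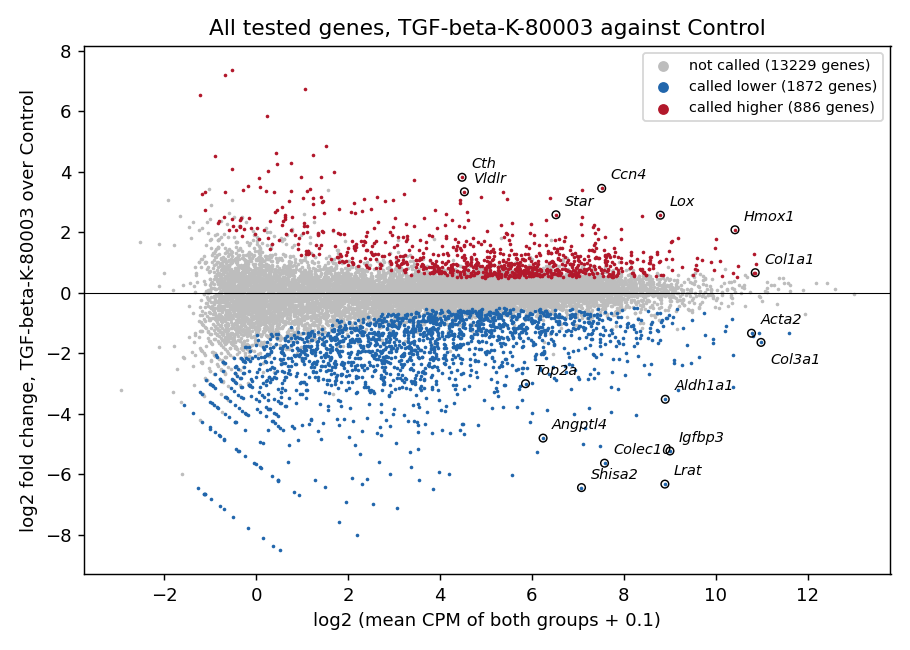
Log2 fold change of TGF-beta-K-80003 over Control (vertical axis) against the mean level of both groups on a log2 CPM scale (horizontal axis) for each gene tested, with some of the genes named in the text circled. The 1872 genes called lower spread further from the zero line than the 886 called higher; Lrat, Shisa2, Igfbp3 and Colec10 lie lowest among the labelled genes and Cth, Ccn4 and Vldlr highest.

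The largest falls included genes of the quiescent stellate cell and of secreted factors. Lrat, which makes the retinyl esters that stellate cells store (ENSMUSG00000028003, GRCm39 chromosome 3, 82799886 to 82811280), had 11.0 and 12.4 CPM in TGF-beta-K-80003 against 1101 and 776 CPM in Control. Log2 FC is used below for the log2 fold change of TGF-beta-K-80003 over Control, unless another pair is named. The groups were far apart, and the fall of 6.33 on the log2 scale (SE 0.22, edgeR adjusted p = 0.000156) was called under every setting tried. Shisa2, a membrane protein gene, had 3.30 and 2.81 CPM against 302 and 232 CPM (log2 FC -6.44, edgeR adjusted p = 0.000156). Igfbp3, which binds IGFs in serum and tissue (ENSMUSG00000020427, chromosome 11, 7156086 to 7163923), had 25.2 and 28.0 CPM in TGF-beta-K-80003 against 918 and 1080.0 CPM in Control (log2 FC -5.23, SE 0.16, edgeR adjusted p = 0.000156). Colec10, a collectin of the lectin complement pathway, had 8.02 and 7.03 CPM against 438 and 311 CPM (log2 FC -5.64, edgeR adjusted p = 0.000309). Other genes in this group were the proteoglycan gene Ogn (log2 FC -5.27), the potassium channel gene Kcnk3 (log2 FC -5.93), the neutrophil chemokine gene Cxcl5 (log2 FC -5.18), the neurotrophin gene Ntf3 (log2 FC -5.58), the methyltransferase gene Inmt (log2 FC -6.49) and Ankrd55 (log2 FC -6.04), with edgeR adjusted p between 0.000156 and 0.00159. Mmp7, a matrix metalloproteinase gene, had 2 counts over the TGF-beta-K-80003 libraries and 252 over the Control libraries, a ratio of Control over TGF-beta-K-80003 of 139 (95% counting interval 38.0 to 1151). Ntf3 and Inmt rested on 9 and 11 counts over the TGF-beta-K-80003 libraries and 411 and 951 over the Control libraries. Ogn and Ankrd55 each overlap a counted gene on the other strand, and without a stated strand setting their counts are uncertain.

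The largest rises included amino acid enzymes and secreted peptides. Cth, which makes cysteine from cystathionine (ENSMUSG00000028179, chromosome 3, 157599885 to 157630714), had 37.5 and 45.5 CPM in TGF-beta-K-80003 against 2.76 and 3.13 CPM in Control, the largest rise among the genes named here (log2 FC 3.81, SE 0.18, edgeR adjusted p = 0.000252). Ccn4, a matricellular protein gene also known as Wisp1 (ENSMUSG00000005124, chromosome 15, 66763169 to 66795050), had 364 and 307 CPM against 34.5 and 27.0 CPM (log2 FC 3.45, SE 0.21, edgeR adjusted p = 0.000416). Bcat1, a branched-chain amino acid transaminase gene, had 73.7 and 75.8 CPM against 6.45 and 8.28 CPM (log2 FC 3.34, edgeR adjusted p = 0.000349). In each of these genes both libraries given the 2 agents lay above both Control libraries. Pdpn, a mucin-like membrane glycoprotein gene (log2 FC 3.14), Tmeff1 (log2 FC 3.07), Trarg1 (log2 FC 2.67) and the endothelial sialomucin gene Emcn (log2 FC 2.96) rose too. So did the peptide and growth factor genes Cck (log2 FC 3.08), Pyy (log2 FC 3.04), Adm2 (log2 FC 2.97) and Pgf (log2 FC 2.72), and the mitochondrial folate enzyme gene Aldh1l2 (log2 FC 3.38), with edgeR adjusted p between 0.00028 and 0.0041. Pyy rested on 172 counts over the TGF-beta-K-80003 libraries and 19 over the Control libraries, a ratio of 8.23 (95% counting interval 5.11 to 14.0).

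Genes of vitamin A storage and retinoid metabolism were mostly lower with both agents. Of 17 members tested, 9 fell and 1 rose, and the median log2 fold change was -1.60, against 0.02 for all genes. Beside Lrat, Aldh1a1, which oxidises retinal to retinoic acid (ENSMUSG00000053279, chromosome 19, 20470079 to 20620829), had 75.9 and 76.9 CPM in TGF-beta-K-80003 against 803 and 955 CPM in Control (log2 FC -3.52, SE 0.15, edgeR adjusted p = 0.00024). Cyp26b1, which breaks down retinoic acid, had 1.68 and 0.996 CPM against 33.5 and 29.5 CPM (log2 FC -4.54, edgeR adjusted p = 0.000368). Rarres2, a retinoid-responsive gene that encodes chemerin, had 6.08 and 7.38 CPM against 51.7 and 78.6 CPM (log2 FC -3.28, edgeR adjusted p = 0.000977); it overlaps a counted gene on the other strand. The enzymes that make retinoic acid, store retinol and clear retinoic acid thus all had members among the 9 that fell. Without TGF-beta-K-80003 replicate 1 or replicate 2 the number that fell was 5, and the 1 that rose was not called with any library left out.

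Other genes that mark stellate cells were lower as well. Of 14 stellate cell markers 11 fell and 0 rose (7 fell without either TGF-beta-K-80003 library), with a median log2 fold change of -1.33. Dcn, the small proteoglycan decorin, had 1703 and 1822 CPM in TGF-beta-K-80003 against 4262 and 4655 CPM in Control (log2 FC -1.34, edgeR adjusted p = 0.00218). Of 17 mesenchymal transcription factors, 6 fell and 2 rose. Those that fell included Tcf21 (log2 FC -1.70), Hand2 (log2 FC -1.65) and the quiescence factor Lhx2 (log2 FC -1.31, edgeR adjusted p = 0.00256), with 47.2 and 51.4 CPM against 116 and 128 CPM. Runx1, a factor of blood and mesenchymal lineages, rose, with 87.8 and 69.4 CPM in TGF-beta-K-80003 against 17.3 and 14.6 CPM in Control (log2 FC 2.30, edgeR adjusted p = 0.00201). It was the 1 factor called higher without TGF-beta-K-80003 replicate 1 or 2 or Control replicate 2. Tcf21 and Hand2 each overlap a counted gene on the other strand.

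Markers of other cell types moved too. Each of 7 cholangiocyte markers fell (5 to 7 with 1 library left out), and their summed level was 96.4 and 109 CPM in TGF-beta-K-80003 and 349 and 477 CPM in Control. The keratin gene Krt19 had 20.2 and 23.4 CPM against 135 and 189 CPM (log2 FC -2.89, edgeR adjusted p = 0.00117) and Krt7 had 25.9 and 33.4 CPM against 99.1 and 143 CPM (log2 FC -2.03, edgeR adjusted p = 0.00321). Of 9 mesothelial markers 4 were tested and all 4 fell, though not all were called with each library left out. The 9 summed to 135 and 167 CPM in TGF-beta-K-80003 and 533 and 766 CPM in Control, mostly from the keratin genes Krt8 and Krt18. Mesothelin (Msln) was at 8.02 and 8.26 CPM against 31.2 and 36.4 CPM (log2 FC -2.05, edgeR adjusted p = 0.000744). The markers not tested held few counts. Upk3b had 0 over the TGF-beta-K-80003 libraries and 3 over the Control libraries. Upk1b, Lrrn4, Muc16 and Gpm6a had 8, 6, 5 and 15 against 1, 4, 2 and 12. Of 6 smooth muscle and pericyte markers tested 4 fell (2 without TGF-beta-K-80003 replicate 1), with sums of 91.3 and 90.5 CPM against 410 and 364 CPM. Of 11 sinusoidal endothelial markers 4 rose and 3 fell, with sums of 932 and 777 CPM against 828 and 578 CPM; the number that rose was 0 without TGF-beta-K-80003 replicate 1 or 2 and 2 without Control replicate 2. The endothelial cadherin gene Cdh5 had 357 and 288 CPM in TGF-beta-K-80003 against 147 and 87.2 CPM in Control (log2 FC 1.46, edgeR adjusted p = 0.0198). Its call was lost without TGF-beta-K-80003 replicate 1 or 2. Pecam1, Kdr and Tie1 rose too (log2 FC 0.59, 1.09 and 1.03). The call of Pecam1 was lost with any single library left out. Stab1, with 88.4 and 70.2 CPM in TGF-beta-K-80003 against 191 and 142 CPM in Control, was narrowly not called (log2 FC -1.07, edgeR adjusted p = 0.052). It was called lower in 11 of 16 other settings, and it overlaps a counted gene on the other strand. The 3 that fell were Lyve1, Clec4g and Oit3 (log2 FC -6.98, -4.62 and -1.18). Lyve1 and Clec4g rested on 3 and 17 counts over the TGF-beta-K-80003 libraries, against 378 and 391 over the Control libraries. Of 5 portal fibroblast markers tested 1 rose and 2 fell; the number that fell was 0 without TGF-beta-K-80003 replicate 1 or 2 or Control replicate 1 and 1 without any other library. The sum, 293 and 270 CPM against 99.1 and 74.8 CPM, was mostly that of the fibulin gene Fbln2. The part of these other cells in the gene groups below was not tested.

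Collagen genes split between higher and lower, and the chains of type I collagen did not move together. Of 18 chains tested, 4 rose and 7 fell, with a median log2 fold change of 0.03. Col3a1, the type III chain of fibrillar collagen (ENSMUSG00000026043, chromosome 1, 45350698 to 45388866), had 994 and 969.6 CPM in TGF-beta-K-80003 against 3271 and 2863 CPM in Control (log2 FC -1.64, SE 0.14, edgeR adjusted p = 0.000956). The type VI microfibril chains Col6a1 (log2 FC -1.77, edgeR adjusted p = 0.00125) and Col6a2 (log2 FC -1.37, edgeR adjusted p = 0.00294) and the network collagen gene Col8a1 (log2 FC -2.10, edgeR adjusted p = 0.00121) fell too. Col1a1, which encodes the alpha 1 chain of type I collagen (ENSMUSG00000001506, chromosome 11, 94827050 to 94843868), had 2322 and 2225 CPM in TGF-beta-K-80003 against 1419 and 1458 CPM in Control. The groups did not overlap and the log2 fold change was 0.66 (SE 0.14, edgeR adjusted p = 0.0248). Its call was lost without TGF-beta-K-80003 replicate 1 (adjusted p = 0.177) or 2 (adjusted p = 0.15) and without Control replicate 1 (adjusted p = 0.0751) or 2 (adjusted p = 0.0698), and in limma on log2(FPKM + 1) (adjusted p = 0.0812). Col1a2, which encodes the other chain of the triple helix (ENSMUSG00000029661, chromosome 6, 4504814 to 4541544) had 1112 and 1090.4 CPM against 1127 and 1199.7 CPM, a log2 difference of -0.08 (95% interval -0.39 to 0.23, edgeR adjusted p = 0.753). The number of chains that rose was 0 without TGF-beta-K-80003 replicate 1 or 2 or Control replicate 2, 1 without Control replicate 1 and 2 without either TGF-beta library; the number that fell stayed between 5 and 7.

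Enzymes that process and crosslink collagen were led by lysyl oxidase. Of 24 tested, 3 rose and 5 fell, with a median log2 fold change of 0.03. Lox, which crosslinks collagen and elastin (ENSMUSG00000024529, chromosome 18, 52649139 to 52662939), had 806 and 712 CPM in TGF-beta-K-80003 against 148 and 109.6 CPM in Control (log2 FC 2.56, SE 0.19, edgeR adjusted p = 0.000781), and so stood well above untreated cells while Col1a2 did not. Of the enhancers of procollagen C-proteinase, Pcolce2 rose, with 6.60 and 8.73 CPM against 2.07 and 2.61 CPM (log2 FC 1.71, edgeR adjusted p = 0.00651), and Pcolce fell, with 96.0 and 109 CPM against 253 and 289 CPM (log2 FC -1.41, edgeR adjusted p = 0.00266). Pcolce overlaps a counted gene on the other strand. The prolyl 3-hydroxylase gene P3h1 rose (log2 FC 0.79, edgeR adjusted p = 0.0106), a call lost without TGF-beta-K-80003 replicate 1 (adjusted p = 0.0912) or 2 (adjusted p = 0.122) or Control replicate 2 (adjusted p = 0.0571). The number that fell was 1 without TGF-beta-K-80003 replicate 1 or 2 and 2 without Control replicate 1.

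Elastic fibre genes and proteoglycans were more often lower. Of 17 elastic fibre and microfibril genes, 3 rose and 7 fell, with a median log2 FC of -0.76. Efemp1, a fibulin, had 45.9 and 46.1 CPM in TGF-beta-K-80003 against 414 and 425 CPM in Control (log2 FC -3.19, edgeR adjusted p = 0.000186), and Fbln5 (log2 FC -1.77) and Emilin1 (log2 FC -1.31) fell as well (edgeR adjusted p = 0.000849 and 0.00208). Fbln2 went the other way, with 274 and 252 CPM against 71.0 and 46.0 CPM (log2 FC 2.17, edgeR adjusted p = 0.00226). Of 21 matricellular proteins and proteoglycans, 8 fell and 1, Ccn4, rose. The small leucine-rich proteoglycan genes lumican (Lum, log2 FC -2.74), fibromodulin (Fmod, log2 FC -6.15) and Ogn fell, and Lum had 65.6 and 70.4 CPM in TGF-beta-K-80003 against 447 and 459 CPM in Control (edgeR adjusted p = 0.000349). Fmod rested on 5 counts over the TGF-beta-K-80003 libraries and 344 over the Control libraries. Ccn2, a growth factor also called CTGF (ENSMUSG00000019997, chromosome 10, 24471340 to 24474581), had 2067 and 2217 CPM in TGF-beta-K-80003 against 1267 and 1533 CPM in Control; the log2 difference of 0.61 (SE 0.17) was not called by edgeR (adjusted p = 0.0557) but was by DESeq2 (adjusted p = 0.0229). Ccn2 overlaps a counted gene on the other strand. The number of elastic fibre genes that fell was 3 and 4 without TGF-beta-K-80003 replicates 1 and 2 and 4 without Control replicate 1, and the number that rose was 1 without either TGF-beta-K-80003 library.

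Among matrix proteases and their inhibitors, 6 of 21 rose and 7 fell. Adamts5, an aggrecan-cutting protease, had 12.2 and 12.2 CPM in TGF-beta-K-80003 against 297 and 247 CPM in Control (log2 FC -4.48, SE 0.18, edgeR adjusted p = 0.000188), and Plat, which encodes tissue plasminogen activator, had 13.8 and 11.9 CPM against 52.8 and 46.7 CPM (log2 FC -1.95, edgeR adjusted p = 0.000906). Mmp10, stromelysin 2, rose (log2 FC 2.25, edgeR adjusted p = 0.0012). Timp1, an inhibitor of metalloproteinases, had 90.8 and 122 CPM against 27.3 and 44.4 CPM (log2 FC 1.57, edgeR adjusted p = 0.0168); its call was lost without TGF-beta-K-80003 replicate 2 (adjusted p = 0.101) or Control replicate 1 (adjusted p = 0.0547), and it overlaps a counted gene on the other strand. The number that rose was 3 without TGF-beta-K-80003 replicate 2, and the number that fell was 4 and 3 without TGF-beta-K-80003 replicates 1 and 2.

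Contractile genes were lower than in untreated cells. Of 24 tested, 13 fell and 1 rose, with a median log2 fold change of -0.93. Acta2, the alpha actin of smooth muscle and myofibroblasts (ENSMUSG00000035783, chromosome 19, 34218490 to 34232990), had 926 and 1060.1 CPM in TGF-beta-K-80003 against 2188 and 2842 CPM in Control. In TGF-beta it had 5500 and 4538 CPM, above Control but narrowly not called (log2 FC over Control 1.00, edgeR adjusted p = 0.0512). Acta2 is therefore not among the genes placed by position below. Both libraries with the 2 agents lay below both Control libraries (log2 FC -1.34, SE 0.19, edgeR adjusted p = 0.00557), and the call was lost without TGF-beta-K-80003 replicate 1 (adjusted p = 0.0589). Larger falls were in Myh11, the smooth muscle myosin heavy chain, with 34.7 and 28.1 CPM against 251 and 206 CPM (log2 FC -2.86, edgeR adjusted p = 0.0012), and in Lmod1, an actin nucleator of smooth muscle, with 13.7 and 15.6 CPM against 83.1 and 89.0 CPM (log2 FC -2.55, edgeR adjusted p = 0.000351). The light chain gene Myl9 (log2 FC -2.24) and the Z-disc gene Synpo2 (log2 FC -3.17) fell too (edgeR adjusted p = 0.00141 and 0.00221). Myh11 and Lmod1 also mark smooth muscle cells, whose part in this result was not tested. The number that fell was 5 and 6 without TGF-beta-K-80003 replicates 1 and 2. The single contractile gene that rose lost its call if either of these or Control replicate 1 was dropped.

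Targets and feedback inhibitors of the TGF-beta pathway did not share a direction. Of 22 tested, 7 rose and 6 fell, with a median log2 FC of 0.39. Pmepa1, a feedback inhibitor that sequesters SMADs, had 289.7 and 315 CPM in TGF-beta-K-80003 against 78.5 and 90.7 CPM in Control (log2 FC 1.84, edgeR adjusted p = 0.00111) and was among the 7 that rose. Tgfbi, a secreted matrix protein first named for its induction by TGF-beta, had 39.8 and 46.9 CPM against 355 and 404 CPM (log2 FC -3.13, edgeR adjusted p = 0.000327), and the integrin gene Itgb6, whose product activates latent TGF-beta, had 4.35 and 4.57 CPM against 28.1 and 24.6 CPM (log2 FC -2.56, edgeR adjusted p = 0.000416). Among 23 ligands, receptors and SMADs, 4 rose and 5 fell, where 5.54% of all genes tested were higher and 11.7% lower. The ligand genes diverged. Tgfb1 had 164 and 173 CPM in TGF-beta-K-80003 against 91.7 and 85.4 CPM in Control (log2 FC 0.93, edgeR adjusted p = 0.00638), a call lost without TGF-beta-K-80003 replicate 1 (adjusted p = 0.0603) or 2 (adjusted p = 0.0788). Tgfb2 had 14.6 and 14.5 CPM against 77.2 and 68.3 CPM (log2 FC -2.32, edgeR adjusted p = 0.000452), and Tgfb3 had 23.6 and 22.3 CPM against 206 and 207 CPM (log2 FC -3.17, edgeR adjusted p = 0.00024); Tgfb3 overlaps a counted gene on the other strand. The activin subunit gene Inhbb (log2 FC -4.69, edgeR adjusted p = 0.000413) and Bmp4 (log2 FC -2.73, edgeR adjusted p = 0.000827) were also among the 5 that fell. Without TGF-beta-K-80003 replicates 1 and 2 the number of targets that rose was 3 and 4, and without Control replicate 2 it was 4; the number of ligand and receptor genes that rose was 2 without either TGF-beta-K-80003 library.

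**Figure D2:**
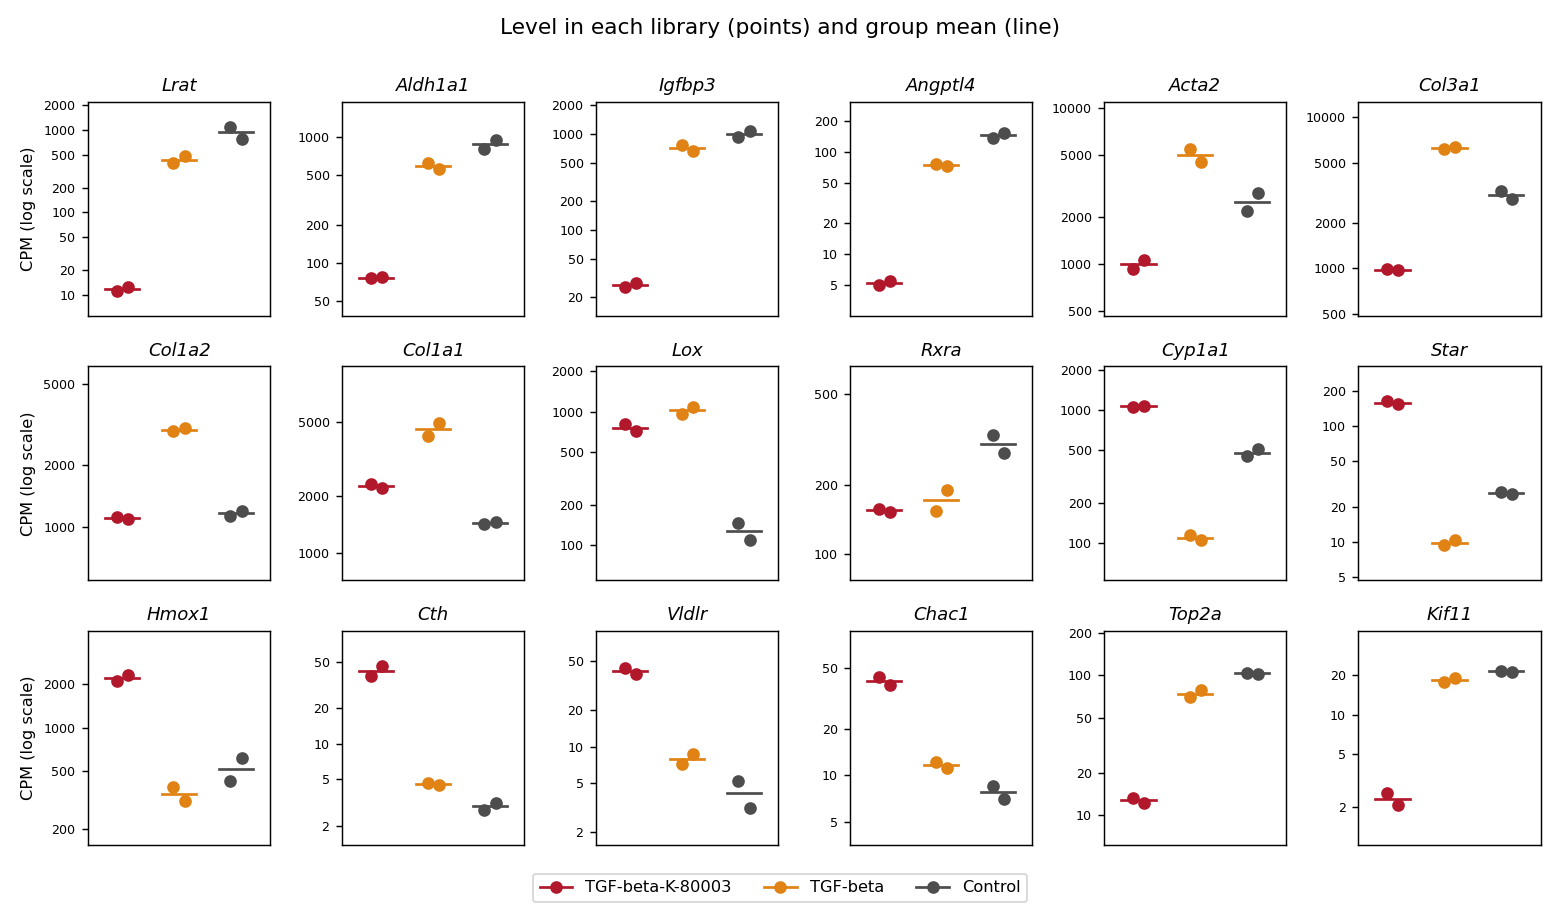
Level of 18 genes in every library, as TMM-scaled CPM on a log scale, with TGF-beta-K-80003 at the left, TGF-beta in the middle and Control at the right of each panel; points are libraries and lines are group means. Lrat, Aldh1a1, Igfbp3 and Angptl4 are lowest with both agents, Col1a2 lies at the Control level, Lox and Col1a1 lie above it, and Star, Hmox1, Cth, Vldlr and Chac1 are highest with both agents.

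Growth factor genes that fell included binding proteins and ligands. Of 17 genes of IGF and PDGF signalling, 6 fell and 0 rose, with a median log2 FC of -0.37. Beside Igfbp3, these included the binding protein genes Igfbp4 (log2 FC -2.24) and Igfbp5 (log2 FC -6.12) and the ligand gene Pdgfd, with 5.87 and 6.86 CPM in TGF-beta-K-80003 against 33.0 and 31.3 CPM in Control (log2 FC -2.34, edgeR adjusted p = 0.000442). Igfbp5 rested on 4 counts over the TGF-beta-K-80003 libraries and 270 over the Control libraries, so the size of its fall is uncertain. The receptor gene Pdgfrb, which drives stellate cell proliferation, had 536 and 446 CPM against 582 and 408 CPM, a log2 difference of -0.01 (95% interval -0.62 to 0.59, edgeR adjusted p = 0.984). Of 22 YAP and TEAD targets 3 rose and 5 fell, a list that also holds Igfbp3, Tgfb2 and Ccn2. Amotl2, a YAP regulator and target, fell (log2 FC -1.22, edgeR adjusted p = 0.0039, and 0.0598 without TGF-beta-K-80003 replicate 2), as did the tissue factor gene F3 (log2 FC -1.17, edgeR adjusted p = 0.0063, and 0.0646 and 0.0724 without TGF-beta-K-80003 replicates 1 and 2). The number of YAP targets that fell was 3 and 2 without TGF-beta-K-80003 replicates 1 and 2, and the number that rose was 0 without TGF-beta-K-80003 replicate 2 and 1 without its replicate 1 or Control replicate 2.

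The receptor and kinase genes of the study's title gave a lower Rxra and no call for the kinases. Rxra (ENSMUSG00000015846, chromosome 2, 27566452 to 27652969) had 157 and 153 CPM in TGF-beta-K-80003 against 329 and 276 CPM in Control, and the groups did not overlap (log2 FC -0.97, SE 0.17, edgeR adjusted p = 0.0127). The call was lost without TGF-beta-K-80003 replicate 1 (adjusted p = 0.104) or 2 (adjusted p = 0.118). The TGF-beta libraries had 153 and 189.5 CPM, close to those with both agents. Camkk2, which encodes CaMKKβ, had 45.7 and 41.5 CPM in TGF-beta-K-80003 against 47.8 and 40.6 CPM in Control, a log2 difference of -0.02 (95% interval -0.43 to 0.39, edgeR adjusted p = 0.959). Prkaa1 and Prkaa2, the genes of the AMPKα subunits, had log2 differences of 0.30 (95% interval -0.06 to 0.67, edgeR adjusted p = 0.249) and 0.16 (95% interval -0.76 to 1.09, edgeR adjusted p = 0.835). Transcript levels do not show the activity of these kinases. Of 18 CaMKK, LKB1 and AMPK genes, 1 rose and 3 fell, near the 5.54% higher and 11.7% lower over all genes tested, and 0 were called without TGF-beta-K-80003 replicate 1 or 2 or Control replicate 1; Sesn2, a stress-induced regulator, was the 1 that rose (log2 FC 0.75, edgeR adjusted p = 0.0353, and 0.214, 0.141 and 0.134 without those libraries).

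Of 16 RXR and partner receptor genes, 2 rose and 4 fell. Nr1h4, the bile acid receptor FXR (ENSMUSG00000047638, chromosome 10, 89290096 to 89369447), had 21.7 and 21.4 CPM in TGF-beta-K-80003 against 119 and 132 CPM in Control (log2 FC -2.54, SE 0.14, edgeR adjusted p = 0.000349), the partner with the smallest p. Rarb, a retinoic acid receptor that is itself a retinoic acid target, fell (log2 FC -1.20, edgeR adjusted p = 0.014, and 0.073 and 0.111 without TGF-beta-K-80003 replicates 1 and 2); it overlaps a counted gene on the other strand. The orphan receptor gene Nr4a2 rose (log2 FC 1.51, edgeR adjusted p = 0.00992, and 0.0678 and 0.0605 without those libraries). The number of receptor genes that fell was 1 without TGF-beta-K-80003 replicate 1 or 2; the number that rose was 0 without TGF-beta-K-80003 replicate 1 and 1 without any other single library.

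Fatty acid oxidation and PPAR target genes were lower with both agents. Of 22 tested, 14 fell and 1 rose, with a median log2 FC of -0.79. Angptl4, a lipase inhibitor and PPAR target (ENSMUSG00000002289, chromosome 17, 33992724 to 34000804), had 4.98 and 5.45 CPM in TGF-beta-K-80003 against 137 and 155 CPM in Control (log2 FC -4.81, SE 0.15, edgeR adjusted p = 0.000156). Cd36, a fatty acid transporter, had 8.54 and 9.67 CPM against 80.3 and 69.2 CPM (log2 FC -3.04, edgeR adjusted p = 0.000322). Pdk4, which turns cells from glucose to fat oxidation (log2 FC -2.50, edgeR adjusted p = 0.000906), and the mitochondrial carrier gene Ucp2 (log2 FC -1.80, edgeR adjusted p = 0.000794) fell as well. The number that fell was 7 without TGF-beta-K-80003 replicate 1 or 2 and 8 without Control replicate 2, and the gene that rose lost its call with any library left out. Of 18 genes of fatty acid synthesis and lipid droplets 3 fell and 0 rose, near the share over all genes tested, and the 3 included the hormone-sensitive lipase gene Lipe (log2 FC -1.66, edgeR adjusted p = 0.00292); that count was 1 without TGF-beta-K-80003 replicate 1 or 2 or Control replicate 1.

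Some cholesterol efflux genes fell, among them Apoe and Abca1. Of 13 LXR and cholesterol efflux targets 4 fell and 0 rose (2 rose without Control replicate 1). Apoe, the apolipoprotein that accepts cellular cholesterol, had 90.9 and 136 CPM in TGF-beta-K-80003 against 767 and 1339 CPM in Control (log2 FC -3.22, edgeR adjusted p = 0.00221), and the cholesterol exporter gene Abca1 had 5.87 and 4.57 CPM against 58.9 and 29.8 CPM (log2 FC -3.08, edgeR adjusted p = 0.00732, and 0.0559 without TGF-beta-K-80003 replicate 2). The count of 4 was 2 and 1 without TGF-beta-K-80003 replicates 1 and 2. Of 24 cholesterol synthesis and uptake genes 1 rose and 0 fell, with a median log2 FC of -0.20; the 1 was Insig1 (log2 FC 0.64, edgeR adjusted p = 0.0211), a brake on the pathway, and it was not called with any library left out (edgeR adjusted p up to 0.178). Hmgcs1, an early enzyme of the pathway, had 104 and 105 CPM in TGF-beta-K-80003 and 145 and 169.8 CPM in Control (log2 FC -0.59, edgeR adjusted p = 0.0608); it was called lower by DESeq2 (adjusted p = 0.0328) and by edgeR without the low-count filter (adjusted p = 0.0402). Among 16 genes of steroid synthesis and START-domain cholesterol carriers 3 rose and 2 fell, the falls near the 11.7% lower over all genes tested. Star, the carrier that brings cholesterol into mitochondria (ENSMUSG00000031574, chromosome 8, 26296583 to 26306010), had 161 and 153 CPM in TGF-beta-K-80003 against 26.8 and 26.0 CPM in Control (log2 FC 2.57, SE 0.14, edgeR adjusted p = 0.000349). Its relative Stard5 rose (log2 FC 1.58, edgeR adjusted p = 0.00128) and Cyp27a1, which hydroxylates the cholesterol side chain, fell (log2 FC -1.74, edgeR adjusted p = 0.00111). Stard5 overlaps a counted gene on the other strand, and the count of 2 that fell was 1 without TGF-beta-K-80003 replicate 1 or 2 or Control replicate 1.

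Targets of ATF4, the factor that reads the integrated stress response, were the pathway list with the largest share of members higher. Of 24 tested, 22 rose and 0 fell, with a median log2 fold change of 1.39. In this response, kinases that sense amino acid lack, unfolded protein, haem lack or viral RNA slow general translation while ATF4 is still made. Cth, Vldlr, Chac1 and Slc7a5 had the smallest p of the list. Vldlr, a lipoprotein receptor (ENSMUSG00000024924, chromosome 19, 27193884 to 27231631), had 44.2 and 39.6 CPM in TGF-beta-K-80003 against 5.20 and 3.13 CPM in Control (log2 FC 3.33, SE 0.25, edgeR adjusted p = 0.000805). Chac1, which degrades glutathione (ENSMUSG00000027313, chromosome 2, 119181710 to 119184862), had 43.3 and 38.3 CPM against 8.52 and 7.06 CPM (log2 FC 2.39, edgeR adjusted p = 0.00058), and Slc7a5, a carrier of large neutral amino acids, had 273 and 262 CPM against 58.9 and 55.6 CPM (log2 FC 2.23, edgeR adjusted p = 0.000416). The groups were apart in each of these genes. Without TGF-beta-K-80003 replicates 1 and 2 the number that rose was 11 and 12.

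Promoters of 3 genes that rose, from the ATF4 and tRNA synthetase lists, are shown for the letters TGATGNAA, the core read by ATF4 with C/EBP partners. The window runs from 250 bases before to 50 bases after the gene start, on the gene's strand, from RefSeq promoters of build GRCm38.p6; this build differs from that of the deposited coordinates. Capitals mark the motif on either strand (TTNCATCA where it lies on the opposite strand). The windows are Chac1 chr2:119350992-119351291 (plus strand, motif at -193), the second annotated start of Vldlr chr19:27216770-27217069 (plus strand, motif at -200; the window of its first annotated start has 0 matches) and the alanyl-tRNA synthetase gene Aars chr8:111033592-111033891 (plus strand, motifs at -112 and 10), with positions counted from the gene start to the first base of the match.
Chac1: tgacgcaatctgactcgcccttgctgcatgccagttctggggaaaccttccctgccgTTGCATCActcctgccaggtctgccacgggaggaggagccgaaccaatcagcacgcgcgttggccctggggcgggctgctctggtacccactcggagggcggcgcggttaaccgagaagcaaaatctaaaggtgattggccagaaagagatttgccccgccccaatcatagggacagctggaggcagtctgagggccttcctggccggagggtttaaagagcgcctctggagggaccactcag
Vldlr: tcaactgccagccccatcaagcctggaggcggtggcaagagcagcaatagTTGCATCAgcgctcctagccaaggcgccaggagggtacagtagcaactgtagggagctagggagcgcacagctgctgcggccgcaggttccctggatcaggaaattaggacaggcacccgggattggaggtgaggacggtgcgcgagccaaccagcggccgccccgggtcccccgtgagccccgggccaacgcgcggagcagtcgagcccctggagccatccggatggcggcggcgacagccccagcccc
Aars: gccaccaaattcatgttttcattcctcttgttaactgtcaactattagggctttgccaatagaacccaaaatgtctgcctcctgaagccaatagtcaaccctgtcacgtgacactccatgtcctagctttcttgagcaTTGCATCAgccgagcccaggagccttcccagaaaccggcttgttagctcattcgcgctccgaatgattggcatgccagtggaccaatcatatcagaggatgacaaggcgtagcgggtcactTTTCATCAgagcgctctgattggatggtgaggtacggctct
The motif was present in 7 of 20 ATF4-list genes with a window (35%), in 5 of 13 aminoacyl-tRNA synthetase genes (38.5%) and in 2 of 14 serine and one-carbon genes (14.3%). Among all genes with a window 4.51% held it, and among genes tested here 2.78% (309 of 11103). A match is a description of letters and shows no binding.

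The enzymes that make serine, glycine and folate-bound carbon units were mostly higher. Of 16 tested, 12 rose and 0 fell, with a median log2 FC of 1.59, and the count was 9 to 12 with 1 library left out. Aldh1l2, in mitochondria, had 292 and 203 CPM in TGF-beta-K-80003 against 31.1 and 16.4 CPM in Control (log2 FC 3.38, edgeR adjusted p = 0.0041); it overlaps a counted gene on the other strand. Shmt2, which turns serine into glycine (ENSMUSG00000025403, chromosome 10, 127352992 to 127358313), had 256 and 277 CPM against 70.0 and 87.1 CPM (log2 FC 1.76, SE 0.17, edgeR adjusted p = 0.00151). The mitochondrial folate enzyme gene Mthfd2 had 157 and 175 CPM against 42.8 and 49.0 CPM (log2 FC 1.85, edgeR adjusted p = 0.00108). All 3 are mitochondrial enzymes. The proline enzyme gene Pycr1 (log2 FC 2.04, edgeR adjusted p = 0.000849) and the neutral amino acid carrier gene Slc1a4 (log2 FC 1.91, edgeR adjusted p = 0.000621) were among the 12.

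Cytosolic aminoacyl-tRNA synthetases, which charge tRNAs for translation, were mostly higher, within a narrow range. Of 20 tested 15 rose and 0 fell, with a median log2 FC of 1.05 and a range of 0.08 to 1.35. Aars had 526 and 534 CPM in TGF-beta-K-80003 against 229 and 242 CPM in Control (log2 FC 1.17, edgeR adjusted p = 0.00252). Eprs, the fused glutamyl-prolyl enzyme, had 646 and 566 CPM against 253 and 224 CPM (log2 FC 1.35, edgeR adjusted p = 0.00361), and Wars rose by 1.21 on the log2 scale (edgeR adjusted p = 0.00239); Wars overlaps a counted gene on the other strand. The groups did not overlap in these genes, but the fall in the number called was steep when libraries were left out: 7 and 4 rose without TGF-beta-K-80003 replicates 1 and 2.

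Chaperones of the endoplasmic reticulum rose in part. Of 22 tested 11 rose and 0 fell, with a median log2 FC of 0.71. Ero1a, the oxidase that drives disulfide formation, had 315 and 305 CPM in TGF-beta-K-80003 against 141 and 125 CPM in Control (log2 FC 1.22, edgeR adjusted p = 0.00269). Herpud1, of the degradation pathway for unfolded proteins, had 228 and 248 CPM against 108 and 108 CPM (log2 FC 1.14, edgeR adjusted p = 0.00365, and 0.0503 without TGF-beta-K-80003 replicate 2). The chaperone gene Hyou1 (log2 FC 1.06, edgeR adjusted p = 0.00371, and 0.0519 without TGF-beta-K-80003 replicate 1) and the disulfide isomerase gene Pdia4 (log2 FC 0.92, edgeR adjusted p = 0.0063, and 0.0617 and 0.0824 without TGF-beta-K-80003 replicates 1 and 2) were also higher. The count of 11 was 3 and 2 without TGF-beta-K-80003 replicates 1 and 2 and 6 without Control replicate 2.

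**Figure D3:**
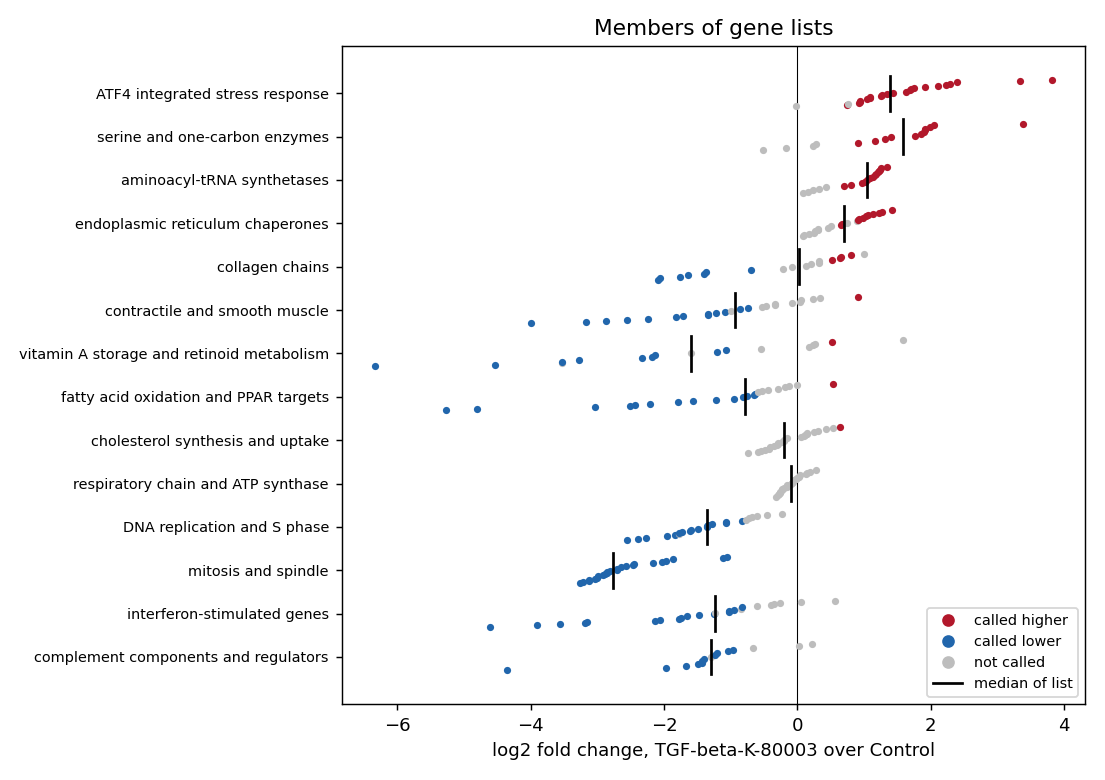
Log2 fold change of TGF-beta-K-80003 over Control for each tested member of 14 gene lists; red points were called higher, blue points called lower, grey points not called, and the black bar is the list's median. Of the ATF4, serine and tRNA synthetase lists, 23 of 24, 14 of 16 and 20 of 20 members lie to the right of zero, with medians of 1.39, 1.59 and 1.05, and all 24 mitosis genes lie to the left with a median log2 FC of -2.76.

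Antioxidant and aryl hydrocarbon receptor (AhR) target genes rose in part. Of 22 NRF2 antioxidant genes 7 rose and 1 fell, with a median log2 FC of 0.24. Hmox1, haem oxygenase 1 (ENSMUSG00000005413, chromosome 8, 75820249 to 75827217), had 2095 and 2328 CPM in TGF-beta-K-80003 against 428 and 619 CPM in Control (log2 FC 2.08, SE 0.22, edgeR adjusted p = 0.00211). The quinone reductase gene Nqo1 had 701 and 754 CPM against 274 and 282 CPM (log2 FC 1.39, edgeR adjusted p = 0.00157), and Gclm, a subunit of the enzyme that starts glutathione synthesis, had 581 and 619.6 CPM against 251 and 246 CPM (log2 FC 1.27, edgeR adjusted p = 0.00208). Srxn1, which repairs oxidised peroxiredoxins, rose by 1.17 on the log2 scale (edgeR adjusted p = 0.00285). The count of 7 was 4 without TGF-beta-K-80003 replicate 1, where the 1 that fell was not called, and Gclm overlaps a counted gene on the other strand. Of 10 AhR genes 5 rose and 2 fell, with a median log2 FC of 1.27. Cyp1b1 had 609.5 and 541 CPM in TGF-beta-K-80003 against 106 and 92.5 CPM in Control (log2 FC 2.54, edgeR adjusted p = 0.000416), and Cyp1a1 (ENSMUSG00000032315, chromosome 9, 57595211 to 57611107) had 1057 and 1061 CPM against 449 and 503 CPM (log2 FC 1.15, SE 0.14, edgeR adjusted p = 0.0034). Both are monooxygenases that AhR induces. Tiparp, a repressor of AhR, rose by 1.49 on the log2 scale (edgeR adjusted p = 0.00411) and overlaps a counted gene on the other strand. The 2 AhR genes that fell were not called without TGF-beta-K-80003 replicate 1 or 2, and 1 was called without Control replicate 2.

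Windows of Gclm chr3:122245307-122245606 (plus strand, GRCm38.p6) and Cyp1a1 chr9:57697363-57697662 (plus strand) are shown because both genes rose and each holds the core motif of its list. Capitals mark TGACNNNGC, the antioxidant response element, in Gclm (match at -134) and GCGTG, the core bound by AhR with its partner, in Cyp1a1 (match at -54), on either strand (GCNNNGTCA in Gclm).
Gclm: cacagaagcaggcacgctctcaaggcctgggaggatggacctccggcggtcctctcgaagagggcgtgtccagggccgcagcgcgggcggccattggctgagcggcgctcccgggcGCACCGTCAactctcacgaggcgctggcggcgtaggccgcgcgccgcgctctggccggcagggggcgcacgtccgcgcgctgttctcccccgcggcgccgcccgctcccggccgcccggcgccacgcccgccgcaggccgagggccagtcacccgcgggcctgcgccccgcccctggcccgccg
Cyp1a1: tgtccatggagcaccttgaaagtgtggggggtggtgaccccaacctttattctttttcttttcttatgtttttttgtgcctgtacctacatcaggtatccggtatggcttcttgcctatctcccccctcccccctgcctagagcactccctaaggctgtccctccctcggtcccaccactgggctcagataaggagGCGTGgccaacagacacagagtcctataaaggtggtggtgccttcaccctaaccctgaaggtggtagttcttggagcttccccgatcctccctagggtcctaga
TGACNNNGC was found in 8 of 18 NRF2-list genes with a window (44.4%) and in 17% of genes tested. GCGTG was found in 5 of 8 AhR-list genes (62.5%) and in 54.5% of genes tested, so the share in the AhR list was close to that of other genes. The retinoic acid response element DR5, a direct repeat read by RXR with a retinoic acid receptor, was searched only in a single fixed spelling of the repeat. That spelling was in 3 of 27025 genes with a window, in 0 of 11103 genes tested and in 0 of 11 vitamin A genes. Since no tested gene matched, the search cannot show whether vitamin A genes hold or lack such elements. CAGACA, the SMAD box, was in 3 of 11 TGF-beta targets (27.3%) and in 19.2% of genes tested.

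Genes of cell division were lower, and mitosis genes were the pathway list with the largest share of members called. All 24 mitosis and spindle genes tested fell, with a median log2 fold change of -2.76 and a range from -3.26 to -1.05, and 20 to 24 fell with 1 library left out. Top2a, which untangles chromosomes (ENSMUSG00000020914, chromosome 11, 98883769 to 98915015), had 13.3 and 12.3 CPM in TGF-beta-K-80003 against 104 and 103 CPM in Control (log2 FC -3.01, SE 0.14, edgeR adjusted p = 0.000271). Kif11, the motor that separates spindle poles (ENSMUSG00000012443, chromosome 19, 37364851 to 37410307), had 2.57 and 2.05 CPM against 21.7 and 21.2 CPM (log2 FC -3.21, SE 0.18, edgeR adjusted p = 0.000349). The cyclin gene Ccna2 (log2 FC -3.04, edgeR adjusted p = 0.000395), which overlaps a counted gene on the other strand, and the spindle assembly gene Tpx2 (log2 FC -1.86, edgeR adjusted p = 0.000628) fell as well. The groups were apart in each of them. The TGF-beta libraries had 69.6 and 78.1 CPM of Top2a and 17.7 and 19.1 CPM of Kif11, between the other groups and nearer to Control.

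The promoters of Top2a chr11:99024140-99024439 (minus strand, GRCm38.p6) and Kif11 chr19:37376132-37376431 (plus strand) are shown for TTTGAA, the cell cycle homology region (CHR) element through which DREAM complexes silence mitotic genes outside division. This motif was added after the data were seen. Capitals mark it on either strand (TTCAAA on the other), at -179 and -23 in Top2a and at -19 in Kif11.
Top2a: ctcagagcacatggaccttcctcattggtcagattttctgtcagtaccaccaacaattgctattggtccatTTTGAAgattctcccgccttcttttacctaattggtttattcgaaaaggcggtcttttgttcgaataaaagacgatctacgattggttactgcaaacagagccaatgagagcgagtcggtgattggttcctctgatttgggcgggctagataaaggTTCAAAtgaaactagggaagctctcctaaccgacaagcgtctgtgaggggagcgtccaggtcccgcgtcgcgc
Kif11: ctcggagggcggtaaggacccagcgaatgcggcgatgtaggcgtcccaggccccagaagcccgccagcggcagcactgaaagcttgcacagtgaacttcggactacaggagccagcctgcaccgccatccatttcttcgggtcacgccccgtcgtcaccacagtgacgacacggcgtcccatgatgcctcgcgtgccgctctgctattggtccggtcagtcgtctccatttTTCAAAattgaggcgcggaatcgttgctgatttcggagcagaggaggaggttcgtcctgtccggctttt
TTTGAA was found in 15 of 20 mitosis genes with a window (75%), in 2 of 19 S phase genes (10.5%), in 14.3% of genes tested and in 20.2% of all genes with a window.

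DNA replication genes were mostly lower as well. Of 24 S phase genes 17 fell and 0 rose, with a median log2 FC of -1.35, and 12 to 18 fell with 1 library left out. Mcm5, a subunit of the replicative helicase, had 8.59 and 9.96 CPM in TGF-beta-K-80003 against 43.0 and 46.7 CPM in Control (log2 FC -2.27, edgeR adjusted p = 0.000464). Uhrf1, which keeps DNA methylation through replication, had 7.23 and 7.44 CPM against 44.5 and 42.1 CPM (log2 FC -2.56, edgeR adjusted p = 0.000447). The origin licensing gene Cdc6 (log2 FC -2.40) and Mcm6 (log2 FC -1.59) fell too (edgeR adjusted p = 0.000628 and 0.00152). Of 20 CDK inhibitors, D cyclins and p53 targets, 5 rose and 3 fell. Ccnd1, cyclin D1, had 32.8 and 30.8 CPM in TGF-beta-K-80003 against 103 and 75.9 CPM in Control (log2 FC -1.49, edgeR adjusted p = 0.00699, and 0.0551 and 0.0638 without TGF-beta-K-80003 replicates 1 and 2). The CDK4 and CDK6 inhibitor gene Cdkn2c fell (log2 FC -1.95, edgeR adjusted p = 0.00197). Gadd45a, a DNA damage gene, rose (log2 FC 1.49, edgeR adjusted p = 0.0134, and 0.0867 without TGF-beta-K-80003 replicate 2), as did Mdm2, the p53 ubiquitin ligase (log2 FC 0.81, edgeR adjusted p = 0.0174, and 0.128, 0.122 and 0.0874 without TGF-beta-K-80003 replicates 1 and 2 and Control replicate 2). Ccnd1 and Gadd45a each overlap a counted gene on the other strand. The 5 that rose became 2 and 0 without TGF-beta-K-80003 replicates 1 and 2 and 3 and 2 without Control replicates 1 and 2; the 3 that fell became 1 without either TGF-beta-K-80003 library.

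Immune genes of several kinds were lower. Of 24 interferon-stimulated genes 16 fell and 0 rose, with a median log2 FC of -1.24 (8 fell without TGF-beta-K-80003 replicate 2). Gbp2, a guanylate-binding protein, had 11.0 and 9.90 CPM in TGF-beta-K-80003 against 93.4 and 96.1 CPM in Control (log2 FC -3.18, edgeR adjusted p = 0.000232), and Ifit3 had 4.40 and 5.33 CPM against 49.7 and 65.1 CPM (log2 FC -3.56, edgeR adjusted p = 0.000442). The chemokine gene Cxcl10, which overlaps a counted gene on the other strand, had 0.734 and 1.05 CPM against 22.0 and 21.5 CPM (log2 FC -4.60, edgeR adjusted p = 0.000389). Of 13 genes of MHC class I presentation 7 fell and 0 rose, and the count was 1 without TGF-beta-K-80003 replicate 1 or 2 and 3 without Control replicate 2. The immunoproteasome subunit gene Psmb9 had 1.99 and 2.29 CPM in TGF-beta-K-80003 against 7.77 and 11.3 CPM in Control (log2 FC -2.16, edgeR adjusted p = 0.00385); it overlaps a counted gene on the other strand. The related subunit gene Psmb8 fell by 1.80 on the log2 scale (edgeR adjusted p = 0.0127, and 0.0894 and 0.0696 without TGF-beta-K-80003 replicates 1 and 2).

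Of 22 chemokines, cytokines and NF-kB targets 12 fell and 1 rose, with a median log2 FC of -1.27, and 6 and 7 fell without TGF-beta-K-80003 replicates 1 and 2. Vcam1, an adhesion receptor for leukocytes, had 99.0 and 106 CPM in TGF-beta-K-80003 against 305 and 315 CPM in Control (log2 FC -1.60, edgeR adjusted p = 0.00108), and the alarmin gene Il33 had 2.46 and 2.46 CPM against 12.2 and 12.4 CPM (log2 FC -2.32, edgeR adjusted p = 0.000829). The 1 that rose was Ptgs2, cyclooxygenase 2, with 72.7 and 65.7 CPM in TGF-beta-K-80003 against 22.7 and 18.9 CPM in Control (log2 FC 1.73, edgeR adjusted p = 0.00128), and it was called with every library left out. Of 15 complement components and regulators 11 fell and 0 rose, with a median log2 FC of -1.29, and 6 fell without TGF-beta-K-80003 replicate 1 or 2. C1s1, a protease of the classical pathway, had 17.6 and 15.9 CPM in TGF-beta-K-80003 against 67.7 and 64.3 CPM in Control (log2 FC -1.98, edgeR adjusted p = 0.000549), and Serping1, which inhibits that protease, had 155 and 167 CPM against 451 and 453 CPM (log2 FC -1.48, edgeR adjusted p = 0.00125). The protease and its inhibitor thus fell together. C1qtnf1, a C1q-related secreted protein, had the largest fall of the list (log2 FC -4.35, edgeR adjusted p = 0.000628).

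Few genes of the respiratory chain, lysosomes or common references were called by edgeR without the replicate block. With it, 3 respiratory chain genes were called lower and 0 higher. The block also gave 6 lysosome and autophagy genes higher and 2 lower, and 4 reference genes higher and 3 lower. Without the block, 0 of 22 respiratory chain and ATP synthase genes were called, with log2 differences between -0.32 and 0.28. Sdha, of complex II, had 213 and 216 CPM in TGF-beta-K-80003 and 248 and 289 CPM in Control (log2 FC -0.32, 95% interval -0.68 to 0.03, edgeR adjusted p = 0.208). Of 22 lysosome and autophagy genes 1 rose and 0 fell; the 1 was the autophagy receptor gene Sqstm1, also an NRF2 and stress target, with 2351 and 2566 CPM against 1126 and 1439 CPM (log2 FC 0.94, edgeR adjusted p = 0.0133, and 0.074 and 0.115 without TGF-beta-K-80003 replicates 1 and 2). It overlaps a counted gene on the other strand. Of 22 glycolysis and hypoxia genes 4 rose and 2 fell, the falls near the 11.7% lower over all genes tested. Vegfa, the endothelial growth factor, had 165 and 151 CPM in TGF-beta-K-80003 against 47.5 and 49.3 CPM in Control (log2 FC 1.70, edgeR adjusted p = 0.00113), and Hk2, hexokinase 2, rose by 1.24 on the log2 scale (edgeR adjusted p = 0.00334). Adm, adrenomedullin, fell, with 39.9 and 40.5 CPM against 247 and 324 CPM (log2 FC -2.83, edgeR adjusted p = 0.000566), so that usual hypoxia targets went in opposite directions. Of 15 genes often used as references 1, the transferrin receptor gene Tfrc, was called (log2 FC 0.66, edgeR adjusted p = 0.0279), and it was not called with any library left out (edgeR adjusted p between 0.0576 and 0.226). The actin gene Actb, widely used to normalise, had 2773 and 3210.4 CPM in TGF-beta-K-80003 and 4203 and 5513 CPM in Control (log2 FC -0.70, edgeR adjusted p = 0.0536); it was called lower by DESeq2 (adjusted p = 0.0187) and by edgeR without the low-count filter (adjusted p = 0.000924) or without Control replicate 1 (adjusted p = 0.034).

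**Figure D4:**
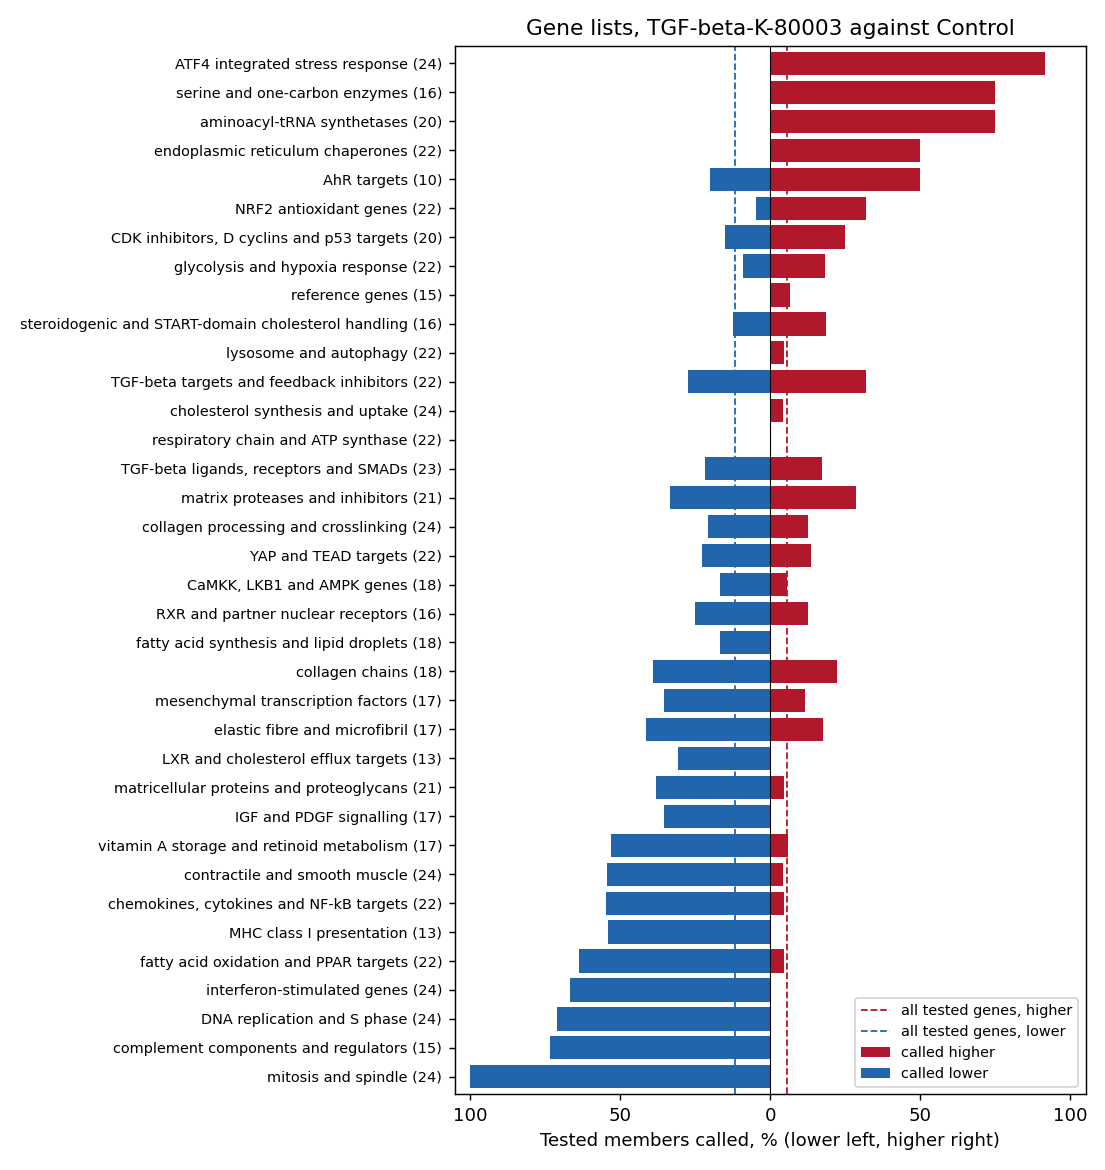
Share of the tested members of 36 gene lists called higher (red, to the right) or lower (blue, to the left) in TGF-beta-K-80003 against Control, with the number tested in brackets and dashed lines at the share of all tested genes (5.54% higher and 11.7% lower). Stress, amino acid and antioxidant lists stand at the top and immune, replication and mitosis lists at the bottom, while the respiratory chain has no called member.

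The levels with both agents were then read against the change made by TGF-beta alone. With TGF-beta alone 470 of 15987 genes were called against Control (2.94%), 170 higher (1.06%) and 300 lower (1.88%). Both comparisons use the same Control libraries, and a Control library and a TGF-beta library were at times closer to each other than replicates were (chi-square per degree of freedom 26.3 between Control replicate 1 and TGF-beta replicate 2, and 31.7 between the Control libraries), so the counts that follow describe positions and test no overlap. A gene called with TGF-beta was placed short of the Control level if it was also called with both agents in the same direction, beyond it if called in the opposite direction, close to it if not called with a 95% interval inside a 2-fold change either way, and undecided otherwise.

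Genes that TGF-beta lowered mostly stayed low with both agents, whereas genes that it raised were more evenly divided. Of the 300 lowered genes, 268 (89.3%) were short of the Control level, 18 (6%) close to it, 6 (2%) beyond it and 8 (2.67%) undecided. Of the 170 raised genes, 83 (48.8%) were short of the Control level, 49 (28.8%) close, 21 (12.4%) beyond and 17 (10%) undecided. The lowered genes that stayed short were, at the median, further from Control with both agents (-2.44) than with TGF-beta (-1.71); 188 of the 268 had a mean further out, and 76 were called lower against TGF-beta alone, a comparison that called 10.1% of all genes (2.78% higher and 7.32% lower). Of the 83 raised genes that stayed short, 38 had a mean further out, 12 were called further and 9 were called back against TGF-beta alone. With 1 library left out, the share of raised genes short of Control ran from 35.1% to 53.2% and that of lowered genes short of it from 82.3% to 97.6%. The share of raised genes beyond Control was 3.9% and 2.7% without TGF-beta-K-80003 replicates 1 and 2, and the share close to it was 16.9% and 17.6% without those libraries, 18.6% if Control replicate 1 was left out and 16.3% if TGF-beta replicate 2 was.

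**Figure D5:**
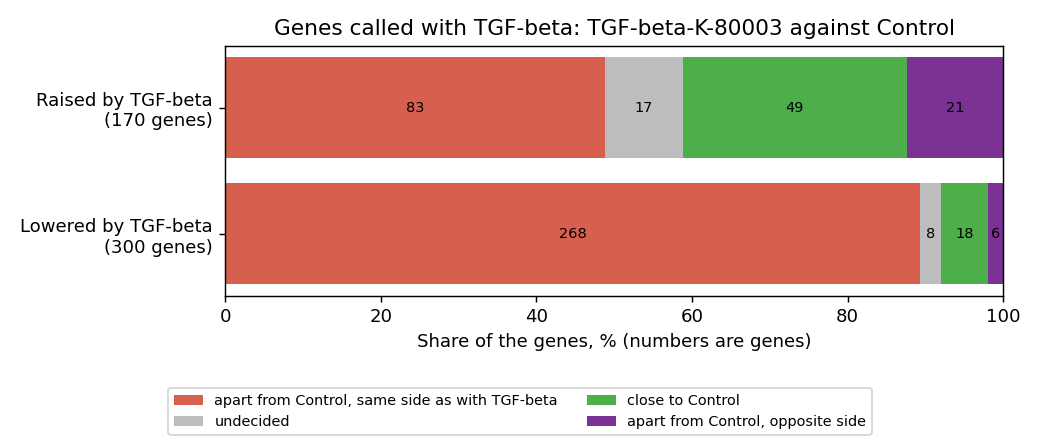
Position of the level in TGF-beta-K-80003 relative to Control for genes called with TGF-beta, as a share of the genes raised (upper bar, 170 genes) and lowered (lower bar, 300 genes) by the cytokine; numbers in the bars are genes. Of the lowered genes 268 remained on the same side, and of the raised genes 49 lay close to Control and 21 on the opposite side.

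Beyond the Control level lay genes that TGF-beta alone had moved one way and that stood on the other side of Control with both agents. Rgs4, a brake on G protein signalling (ENSMUSG00000038530, chromosome 1, 169569046 to 169575211), had 2.52 and 2.17 CPM in TGF-beta-K-80003, 61.5 and 56.3 CPM in TGF-beta and 14.7 and 16.2 CPM in Control, so the order of the groups was clear in every library. Its log2 fold change was -2.71 with both agents and 1.93 with TGF-beta (edgeR adjusted p = 0.000413 and 0.006). Col3a1, with 6132 and 6322 CPM in TGF-beta (log2 FC over Control 1.02, edgeR adjusted p = 0.0176), and Col8a1, with 226 and 258 CPM (log2 FC over Control 1.17, edgeR adjusted p = 0.0294), were in the same class. So were Trabd2b, a protease that cuts WNT ligands (log2 FC -1.54 with both agents, 2.18 with TGF-beta), the heparan sulfate enzyme gene Hs6st2 (log2 FC -0.92 and 1.63), the matricellular gene Ccn5 (log2 FC -1.15 and 2.34) and the elastin gene Eln (log2 FC -0.59 and 2.42). These last calls with both agents were fragile: without TGF-beta-K-80003 replicate 2 the edgeR adjusted p was 0.0582 for Trabd2b, 0.0936 for Hs6st2, 0.0675 for Ccn5 and 0.291 for Eln, and without replicate 1 it was 0.0679, 0.0917 and 0.206 for the last 3. The call of Eln was also lost without any other single library (edgeR adjusted p of at least 0.0626). In the other direction, Cyp1a1 had 115 and 104 CPM in TGF-beta and Star had 9.39 and 10.4 CPM, both under the Control level (log2 FC over Control -2.12 and -1.42, edgeR adjusted p = 0.006 and 0.00911), while with both agents each lay above it.

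Close to the Control level lay, among others, matrix and adhesion genes that TGF-beta had raised. Beside Col1a2, which had 2937 and 3060.1 CPM in TGF-beta (log2 FC over Control 1.37, edgeR adjusted p = 0.00824), the lysyl oxidase-like gene Loxl1 had 11.5 and 11.5 CPM in TGF-beta-K-80003, 34.1 and 32.4 CPM in TGF-beta and 10.2 and 9.73 CPM in Control. Its log2 difference from Control with both agents was 0.21 (95% interval -0.14 to 0.55, edgeR adjusted p = 0.409). Fzd2, a WNT receptor, had 17.3 and 17.9 CPM in TGF-beta-K-80003, 57.2 and 54.2 CPM in TGF-beta and 18.2 and 16.5 CPM in Control (log2 FC 0.02, 95% interval -0.31 to 0.36). The integrin gene Itgb5 (log2 FC 0.41, 95% interval 0.08 to 0.74), the ubiquitin ligase gene Pdzrn3 (log2 FC 0.37, 95% interval -0.13 to 0.88) and the RNA-binding protein gene Csdc2 (log2 FC -0.07, 95% interval -0.69 to 0.56) were placed there as well. Angptl6, which TGF-beta had lowered (log2 FC over Control -1.90), was close too (log2 FC -0.07, 95% interval -0.68 to 0.55) and overlaps a counted gene on the other strand. These 6 genes other than Col1a2 were each called against TGF-beta alone (edgeR adjusted p between 0.00146 and 0.013).

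Short of the Control level, the genes with the largest TGF-beta changes included epithelial and secreted proteins. The cornified envelope gene Sprr1a had 1.15 and 2.17 CPM in TGF-beta-K-80003, 1.19 and 0.863 CPM in TGF-beta and 23.4 and 18.9 CPM in Control (log2 FC -3.67 with both agents, edgeR adjusted p = 0.00116). The tetraspanin gene Tspan8 (log2 FC -3.03), the surface antigen gene Ly6d (log2 FC -3.42) and Inmt stayed low in the same way (edgeR adjusted p = 0.00305, 0.00423 and 0.00159). Tspan8 and Ly6d are known from epithelia, and cholangiocyte and mesothelial marker sums were lower in the same libraries; their part in this was not tested. Pyy had 10.8 and 8.08 CPM in TGF-beta and stayed above Control with both agents. Adamtsl2, a microfibril-binding protein of stellate cells, had 61.8 and 65.9 CPM in TGF-beta-K-80003, 399 and 442 CPM in TGF-beta and 33.8 and 32.7 CPM in Control. Most of its rise with TGF-beta (log2 FC over Control 3.66) was thus absent with both agents (log2 FC 0.94, edgeR adjusted p = 0.00705, and 0.0603 and 0.0832 without TGF-beta-K-80003 replicates 1 and 2). Lox, with 958 and 1087 CPM in TGF-beta (log2 FC over Control 2.99, edgeR adjusted p = 0.006), and Ccn4, with 197 and 255 CPM (log2 FC over Control 2.88, edgeR adjusted p = 0.006), were not called between TGF-beta-K-80003 and TGF-beta (edgeR adjusted p = 0.247 and 0.155). Col1a1 was short of the Control level too, with 4181 and 4931 CPM in TGF-beta (log2 FC over Control 1.66).

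Most genes called with both agents were not called with TGF-beta alone, which is also true of genes at large, since TGF-beta against Control called 2.94% of all genes tested. Of the 2758 genes called with both agents, 2380 were not called in TGF-beta against Control, 797 of them higher and 1583 lower; both comparisons share the Control libraries. Of these, 1182 (320 higher and 862 lower) were also called against TGF-beta alone in the same direction. Lrat, with 392 and 478 CPM in TGF-beta, Igfbp3, with 765 and 670.3 CPM, Cth, with 4.64 and 4.50 CPM, and Hmox1, with 388 and 311 CPM, were among them. A missed call does not show that TGF-beta left a gene unchanged. Both TGF-beta libraries lay below both Control libraries for Lrat (log2 FC over Control -1.11, 95% interval -1.62 to -0.60, edgeR adjusted p = 0.053).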

How the data were processed

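Polyadenylated RNA was sequenced in 6 libraries, 2 in each of 3 groups. The deposited table gave raw read counts per gene together with FPKM values made by the authors, with Ensembl IDs, symbols and GRCm39 coordinates, per the file headers. The submitters' processing notes name HTSeq 0.6.1, HISAT2 2.0.1, DESeq2, Cufflinks 2.2.1, cutadapt 1.9.1 and SAMtools 0.1.19, with no order. The strand setting of the counting was not given in the sources used here. The deposited FPKM equalled values recomputed from the counts within 0.005 for 100% of entries, so depth is known from the counts.

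Counts were filtered with filterByExpr (minimum count 10, minimum total 15), which left 15987 genes and removed 0.130% of counts. They were scaled by TMM and tested with edgeR 4.0.16 quasi-likelihood models (R 4.3.3) in 1 fit over all 6 libraries with 3 residual degrees of freedom. P-values were two-sided with Benjamini-Hochberg adjustment over all genes tested, and the threshold was 0.05. The fit was tested on simulated data. DESeq2 1.42.0, limma 3.58.1 on log2(FPKM + 1) or log2(FPKM + 0.1), other scalings and filters, a replicate block and leaving out each library served as alternatives. Intervals of count ratios cover counting error only. The members, 36 pathway lists and 9 marker lists, of which 816 of 819 entries were found in the table, were chosen with earlier results of these data known. Named genes were those of the title and stellate activation, the 12 largest rises and 12 largest falls among called genes with a mean FPKM of at least 5, for each list, the 4 or fewer with the lowest p, the 6 genes of each position class with the largest TGF-beta change, and, for each marker list, the 3 with the highest level; some genes that fall under this rule are not reported here. Promoter windows came from RefSeq tables of GRCm38.p6, and no sequence was read by GRCm39 coordinates.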

Additional observations from a re-analysis of the deposited data

How the results depend on the processing

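edgeR gave 2758 calls between TGF-beta-K-80003 and Control (886 higher, 1872 lower), and other tools, scalings, filters and a fit of 4 libraries gave 2431 to 3475. With 1 library left out the totals ran from 996 to 2397, from 209 to 635 higher and from 773 to 1762 lower; at an adjusted p under 0.01 they were 1229, 284 and 945. List members called were 326, between 172 and 306 with 1 library left out and 215 at that stricter threshold. Named genes called were 171 of 202, and 131 to 165 with 1 library left out; 127 were called under every setting tried and none of the 171 changed direction. Each fit that leaves a group with 1 library assumes that this library varies like those of the other groups.

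With the replicate number as a block, TGF-beta-K-80003 and Control gave 6517 calls (2935 higher, 3582 lower) and 489 list members. Among cholesterol synthesis and uptake genes it called 4 higher and 9 lower, against 1 and 0 without it, and both Hmgcs1 (adjusted p = 1.20e-06) and Actb (adjusted p = 7.07e-09) were called lower. The numbers were not taken as pairing the libraries in the main fit. Only 2 pairs exist, and the labels tie no number to a shared batch or animal. The deviations of same-numbered libraries from their group means correlated across genes at 0.504 for TGF-beta-K-80003 with Control, the groups compared. The values were -0.476 for TGF-beta-K-80003 with TGF-beta and -0.636 for TGF-beta with Control. In TGF-beta, unlike in the groups compared, replicate 2 had the greater mean exonic length per count. Whether the numbers pair TGF-beta-K-80003 with Control was not tested.

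The share of genes lowered by TGF-beta that were short of Control was 83.0% with DESeq2 and 79.8% without the low-count filter, and 82.3% to 97.6% with 1 library left out. Of the raised genes, the share short of Control was 39.3% without the filter, 37.8% at an adjusted p under 0.01 and 35.1% to 53.2% with 1 library left out. The share close to Control was 44.2% with limma on log2(FPKM + 1), 8.24% with a closeness bound of 1.5-fold and 16.3% to 23.7% with 1 library left out, and the share beyond it was 2.7% to 15.8% with 1 library left out.

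Each difference that turned sign was uncalled in the fit of all 6 libraries, and the cause was not tested. Of these genes, Alb was called without the low-count filter (log2 difference 1.07, edgeR adjusted p = 0.000943), with the block (0.69, adjusted p = 0.00152) and without TGF-beta-K-80003 replicate 1 (1.9, adjusted p = 0.0163), and Reln with the block (-0.36, adjusted p = 0.0063). Fzd2 had a log2 difference of -0.056 with upper-quartile scaling, -0.00225 without the filter, -0.017 at a mean CPM of at least 1, -0.00932 with 4 libraries and -0.00954 with the block. With 1 library left out, log2 differences ran from -0.068 to 0.087 for Fzd2, -0.29 to 0.75 for Prkaa2, -0.37 to 0.30 for Angptl6, -0.16 to 0.097 for Camkk2, -0.27 to 0.26 for Pdgfrb, -0.11 to 0.35 for Vim, -1.15 to 1.9 for Alb, -0.85 to 0.24 for Reln and -0.33 to 0.25 for Csdc2. With 2 libraries a group, genes near the floor of 3 counts (0.158 to 0.192 CPM) are the least certain.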
